A study of Rattus norvegicus with 7 samples.

Results

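miR-383 and miR-488 are 2 of the 677 rat microRNAs (miRNAs) measured on these arrays, and both gave more signal in islets from rats aged 12 months than in islets from rats aged 3 months. They were selected by their array names, rno-miR-383 and rno-miR-488, with the star forms left out. They were picked because of that difference between the ages, so the difference is described here with its error and no test of it is reported. Pancreatic islets had been isolated with collagenase from male Wistar rats, 4 aged 12 months and 3 aged 3 months. RNA prepared with the miRNeasy Kit was labelled with Cy3, a green dye, and hybridised to Agilent single-colour arrays, 1 array per rat, all 7 on 1 slide.

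miRNAs are short RNAs that guide a silencing complex to messenger RNAs, mainly by pairing between the target and a short stretch near their 5′ end, the seed. Each is cut from a hairpin whose arms can both give a mature miRNA, and the array names mark the other arm by a star. In the rat gene table, the gene of miR-383 lay within Sgcz, which encodes sarcoglycan zeta, a membrane protein of the dystrophin-associated complex. The gene of miR-488 lay within Astn1, which encodes astrotactin 1, a neuronal membrane protein that acts in the migration of neurons along glia.

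The hairpin and both arms of miR-488 are shown because the array names do not say which arm the unstarred name stands for. The sequences are those of RefSeq for assembly GRCr8 and are written 5′ to 3′. In the table of miRNA sequences used here, 1 of the 2 members, miR-488, was matched. Capitals mark both arms in the hairpin, and in each arm they mark the seed, bases 2 to 8.
rno-miR-488 hairpin: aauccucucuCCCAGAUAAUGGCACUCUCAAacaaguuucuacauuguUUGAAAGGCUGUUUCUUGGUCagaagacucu
rno-miR-488-5p: cCCAGAUAauggcacucucaa
rno-miR-488-3p: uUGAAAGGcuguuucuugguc
Each arm was 21 bases long, and neither seed was shared with any of the other mature rat miRNAs among the 724 entries of that table.

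Each array carried 20 spots for every rat miRNA, and no spot was saturated. Between 278 and 296 miRNAs were detected on the arrays of 12-month-old rats and between 246 and 272 on those of 3-month-old rats, and the 272 miRNAs with a detection call in all rats of either age were tested. miR-375 and miR-7a, the miRNAs that mark islet endocrine cells, were detected on all 7 arrays. Their differences, 12 minus 3 months, were -0.20 (adjusted p = 0.552) and -0.07 (adjusted p = 0.897) on the normalised log2 scale by limma.

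miR-383 was detected in every rat and was higher at 12 months. Its total gene signal, the background-subtracted intensity that the scanner software sums over the probes of a miRNA, was 156, 140, 150 and 204 units in the 12-month-old rats numbered 2, 4, 10 and 16. It was 23.3, 25.6 and 11.8 units in the 3-month-old rats numbered 9, 11 and 13. The ages did not overlap: the lowest 12-month signal was 5.48-fold the highest 3-month signal. Before normalisation, 131 of the 272 miRNAs tested were higher at 12 months with no overlap of the ages, miR-383 and miR-488 among them. After the normalisation described below, 21 (7.72%) were higher with no overlap, again with both members among them. A further 26 (9.56%) were then lower with no overlap. The mean signal was 162 ± 28.3 units (SD, n = 4) at 12 months and 20.2 ± 7.40 units (SD, n = 3) at 3 months. Rat 16 stood highest at 12 months and rat 13 lowest at 3 months.

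The arrays of 12-month-old rats were brighter as a whole, by a median log2 difference of 0.79 over the tested miRNAs before normalisation and of 0.06 after it. The ratio of the raw means of miR-383 was 8.03. After quantile normalisation, which gives all arrays the same distribution of values, the difference was 5.39-fold. The normalised log2 signals were 7.07, 6.74, 6.98 and 7.27 at 12 months and 4.86, 4.69 and 4.20 at 3 months. The means were 7.01 ± 0.22 (SD, n = 4) and 4.58 ± 0.34 (SD, n = 3), which differed by 2.43 with a standard error of 0.20. The gap between the nearest rats of the ages, 1.88, was wider than the range within either age, 0.52 at 12 months and 0.66 at 3 months.

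The software's own error estimate for the miR-383 signal was small beside the difference between the ages. It was between 10.6 and 14.96 units at 12 months, a median of 7.54% of the signal. At 3 months it was between 3.31 and 3.51 units, a median of 14.97% of the signal. The signal was thus 13.2 to 13.6 times its error in the older rats and 3.36 to 7.72 times its error in the younger rats.

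Both probes of miR-383, each printed as 10 spots, gave the same direction. Probe A_26_P00002991 had probe signals of 61.9, 55.4, 59.9 and 82.3 units at 12 months and 8.68, 9.96 and 3.61 units at 3 months. Probe A_26_P00002992 had probe signals of 94.1, 84.6, 89.9 and 121 units at 12 months and 14.6, 15.6 and 8.16 units at 3 months. Neither probe had overlapping ages, and normalised with either probe alone the log2 difference of the miRNA was 2.62 and 2.28. Probe A_26_P00002991 supplied 39.6 to 40.4% of the miRNA's total in the older rats and 30.7 to 39.0% in the younger rats.

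The single spots of miR-383 separated the ages throughout. All 80 spots of the 12-month arrays were well above background, with intensities from 69.6 to 193 units. At 3 months, 28 of 60 spots (46.7%) were, with intensities from 2.03 to 32.0 units, and 56 of 60 carried the software's weaker call of a significant positive signal. At 20 of 20 spot positions the intensity was higher on all 12-month arrays than on any 3-month array, which held for 2723 of the 13540 positions of rat miRNAs (20.1%). That share includes the positions of miRNAs that were not detected, and the intensities were not normalised. Within an array, the coefficient of variation among spots of 1 probe was 5.61 to 10.6% at 12 months and 21.5 to 45.8% at 3 months. In the 3-month-old rat 13, 0 of 20 spots were well above background, although the software called the miRNA detected.

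**Figure D1:**
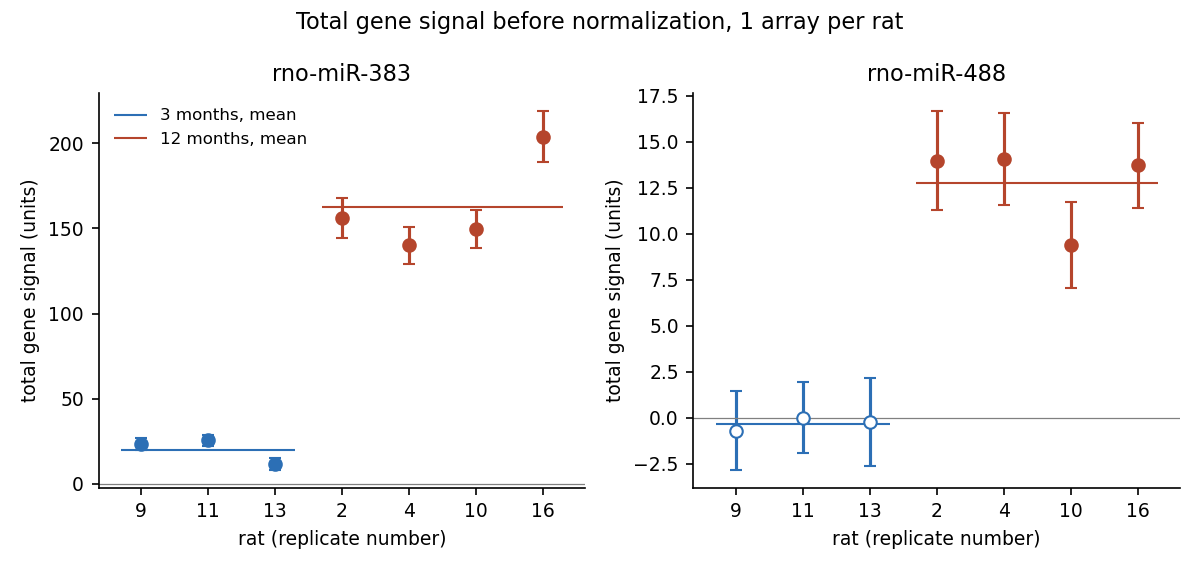
Total gene signal (background-subtracted intensity, linear scale) of miR-383 and miR-488 on each of the 7 arrays, with points for rats and bars for the software's error estimate. miR-383 lies between 140 and 204 units at 12 months and between 11.8 and 25.6 at 3 months, and miR-488 lies between 9.38 and 14.1 units at 12 months and near 0 at 3 months.

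miR-488 was detected in 4 of 4 rats at 12 months and in 0 of 3 at 3 months. Its total gene signal was 14.0, 14.1, 9.38 and 13.7 units in the 12-month-old rats 2, 4, 10 and 16. In the 3-month-old rats 9, 11 and 13 it was -0.691, 0.0101 and -0.249 units, which is at the level of the subtracted background. The older rats lay close together apart from rat 10, whose signal was the lowest. The mean was 12.8 ± 2.27 units (SD, n = 4) at 12 months and -0.31 ± 0.35 units (SD, n = 3) at 3 months. Of the 272 miRNAs tested, 5 (1.84%) were detected on all 12-month arrays and on no 3-month array, and 1 (0.368%) showed the reverse. The paper that reported these arrays also measured both members by quantitative PCR. It found miR-383 raised in the older rats, but could not find a reproducible change of miR-488.

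The signal of miR-488 was dim. Its size relative to the younger rats can be given only against a detection level, which moves with the processing. The lowest signal of any detected miRNA was between 1.42 and 4.92 units, depending on the array, and the software's error for miR-488 was 2.31 to 2.69 units at 12 months. The signal was 4.02 to 5.93 times that error in the older rats. The normalised log2 signals were 3.47, 3.37, 3.19 and 3.45 at 12 months, a mean of 3.37 ± 0.13 (SD, n = 4). All 3-month signals were under 1 unit and were set to that floor, so that the fitted log2 difference, 3.37 with a standard error of 0.13, rests on the floor. Set against the mean of the lowest signals of a detected miRNA on the 3-month arrays, the 12-month level of miR-488 was 4.78-fold. That is not a strict lower limit, because an undetected miRNA can read higher, as miR-126* did in the 3-month rat 13 with 14.5 units. The software's error for miR-488 at 3 months was 1.93 to 2.39 units. The ratio of 4.78 is for the main processing and moves with it: it was between 1.19-fold and 7.53-fold under the alternatives tried.

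miR-488 was represented by 4 probes of 5 spots each, and they did not behave alike. Probe A_26_P00001949 had spot means of 35.5, 34.3, 21.2 and 38.7 units at 12 months and 0.39, 0.49 and 0.95 units at 3 months. All 20 of its 12-month spots and 0 of its 15 3-month spots were well above background, and it supplied 76.3 to 90.2% of the miRNA's total in the older rats. Probe A_26_P00001948 had spot means of 6.85, 4.97, 5.76 and 5.98 units at 12 months and -0.97, -0.73 and 0.19 units at 3 months. It was thus higher in every older rat, with a significant positive signal on 19 of 20 spots at 12 months and on 0 of 15 at 3 months, but none of its spots was well above background.

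Probes A_26_P00001946 and A_26_P00001947 of miR-488 had probe signals at or under the floor of 1 unit on every array. Their spot means lay between -3.35 and 1.40 units and between -0.46 and 1.27 units at 12 months, and between -2.36 and 1.45 units and between -1.45 and 3.83 units at 3 months. A single spot of A_26_P00001947 in the 3-month-old rat 13 read 17.2 units, and the software marked it as an outlier. Across the probes of miR-488, 10 of 20 spot positions (50.0%) were higher on all 12-month arrays than on any 3-month array: 5 of 5 for A_26_P00001949, 5 of 5 for A_26_P00001948, and 0 of 5 for each of the others.

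The 182 negative control spots of each array, designed to match no miRNA, gave the background beside these values. Their mean was between 2.19 and 3.72 units on the 7 arrays. The spot mean of A_26_P00001949 differed from it by 32.0, 30.6, 19.0 and 35.1 units at 12 months and by -2.25, -2.88 and -2.05 units at 3 months. That of A_26_P00001948 differed by 3.35, 1.25, 3.57 and 2.45 units at 12 months and by -3.61, -4.11 and -2.80 units at 3 months. The probe A_26_P00001949 therefore stood clear of the controls in the older rats, whereas A_26_P00001948 exceeded the control mean by a few units on each 12-month array. On each of these arrays the spot mean of A_26_P00001948 lay under the 95th percentile of the control spots, which was 6.61 to 8.86 units. For miR-383 at 3 months, A_26_P00002991 differed from the control mean by 10.04, 11.03 and 2.19 units and A_26_P00002992 by 18.8, 19.3 and 7.95 units, so that the rat with the lowest signal was also the nearest to the controls.

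**Figure D2:**
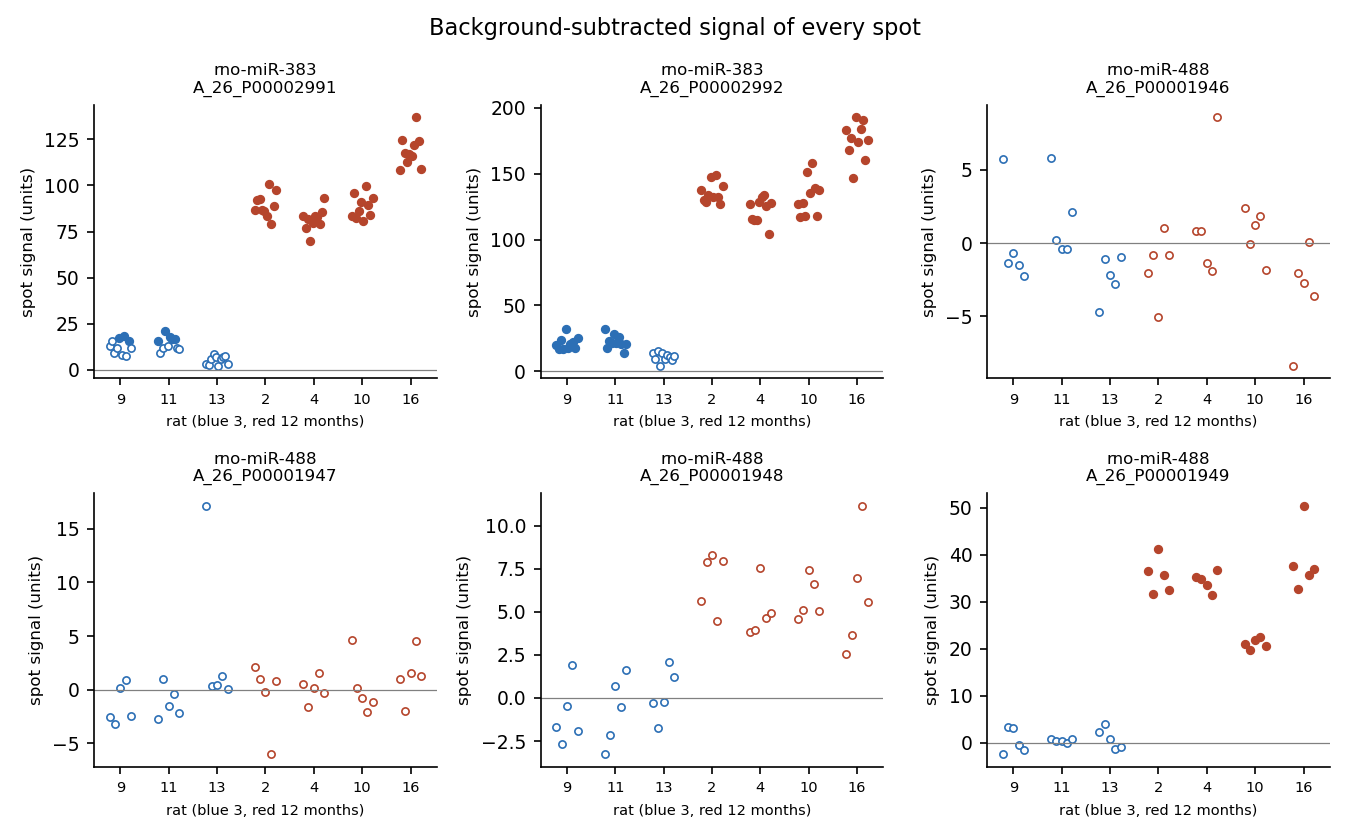
Background-subtracted intensity of every spot of each probe of miR-383 and miR-488 by rat (blue, 3 months; red, 12 months), in units of intensity, with filled circles for spots well above background and open circles for the others. Both miR-383 probes separate the ages at all 20 spot positions, whereas for miR-488 the separation is seen in A_26_P00001949 and, at a few units, in A_26_P00001948.

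The star forms, the other arms of both hairpins, were not detected in any rat. The total gene signal of miR-383* was between -0.577 and 1.38 units at 12 months and between -3.53 and -2.06 units at 3 months, which did not overlap, but each 12-month signal was smaller than the software's error for it. That of miR-488* was between -3.42 and -0.839 units. For miR-383*, 2 of 80 spots at 12 months and 0 of 60 at 3 months were well above background, while 21 of 80 and 1 of 60 had a significant positive signal, 20 of the former on the probe A_26_P00003319. For miR-488* the counts well above background were 0 of 80 and 0 of 60, and those with a significant positive signal 4 of 80 and 1 of 60. Neither star form has a measured level at either age, and no fold difference is given.

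Among all miRNAs tested, the differences of both members stood at the upper end. After miR-124, a neuronal miRNA with a difference of 5.42, miR-488 and then miR-383 had the highest log2 differences of the 272, and the next, miR-330*, had a difference of 1.75. The rank of miR-488 moved with the processing, and in the main processing its 3-month values were all at the floor. It was 3 with a floor at the lowest detected signal, 6 of 307 in the authors' matrix, 7 with the median over spots and 26 with normexp. By contrast, miR-383 ranked 1 with normexp and 2 under each of the other settings just named. The causes of these moves were not tested. The median difference over all miRNAs tested was 0.06, and 157 of 272 (57.7%) were positive. By limma with Benjamini-Hochberg adjustment, 3 of 272 (1.1%) were higher at 12 months and 1 (0.368%) was lower, 4 (1.47%) in all. At an unadjusted p under 0.05 there were 59 (21.7%). These shares are the background of the selection, and nothing is read from them about the members. In islet tissue measured in bulk, fewer cells of a type and less RNA per cell cannot be told apart.

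**Figure D3:**
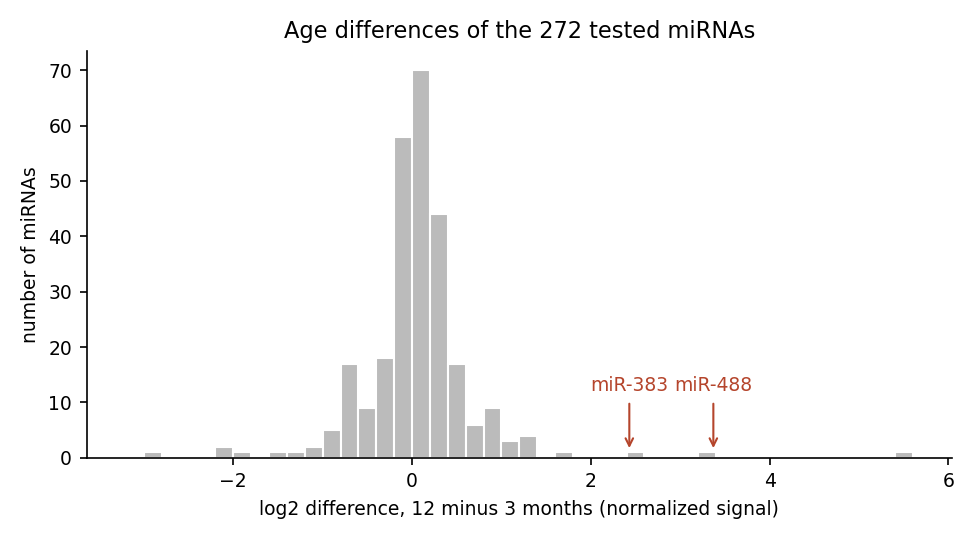
Distribution of the normalised log2 difference, 12 minus 3 months, over the 272 miRNAs tested, with the members marked. The median of all is 0.06, and miR-383 (2.43) and miR-488 (3.37, set by the floor) lie in the upper tail below miR-124.

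The other miRNAs detected at 12 months alone were miR-124, miR-142-5p, miR-24-2* and miR-30c-1*. miR-124 gave 59.2, 14.7, 134 and 59.7 units in the older rats and -2.08, -0.998 and -1.70 units in the younger rats, a wider spread among the older rats than that of miR-488. miR-142-5p, known from blood cells, gave 15.9, 51.5, 22.4 and 23.4 units against 9.93, 7.74 and 4.31 units. Its 3-month signals were thus above 0 although it was not called detected. miR-24-2* gave 5.83, 5.83, 6.19 and 9.15 units against 2.81, 2.59 and -0.96 units, and miR-30c-1* gave 2.69, 4.92, 3.14 and 3.96 units against 0.91, 1.47 and 1.16 units. For these 3, the step in detection came with log2 differences of 1.31, 1.27 and 0.99.

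The profile of each member over the 7 rats was nearest to that of the other member, although without the 12-month rat 10 miR-488 was in place 2 from miR-383. Likeness was measured as the root mean square difference of the normalised log2 signals after each miRNA was centred on its own mean. The distance between miR-383 and miR-488 was 0.52, against a median of 1.22 between miR-383 and the 271 other miRNAs and of 1.66 between miR-488 and the 271 others. For miR-383 the next were miR-330* (0.57), miR-199a-5p (0.68), miR-24-2* (0.69) and miR-214 (0.69). For miR-488 they were miR-330* (0.99), miR-199a-5p (1.10), miR-214 (1.11) and miR-142-5p (1.15). Both members were chosen for the same difference between ages, which enters these distances, and the 3-month values of miR-488 were all at the floor. In the authors' matrix the distance was also 0.52, but miR-383 then stood 132nd of 306 from miR-488.

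**Figure D4:**
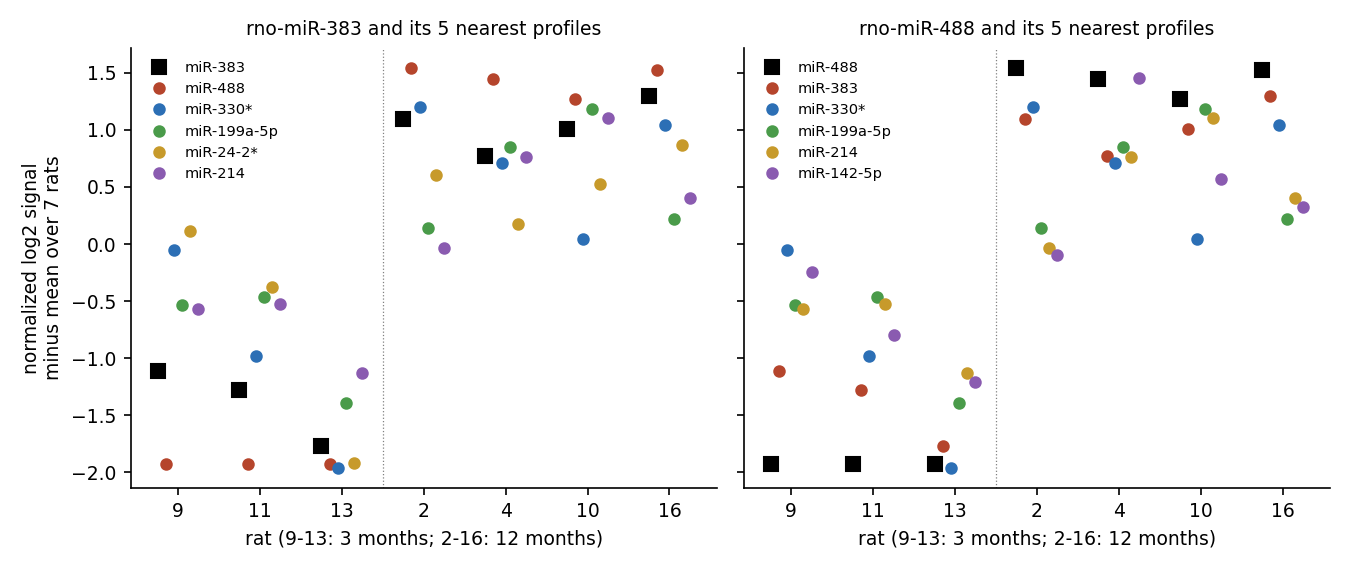
Normalised log2 signal, centred on each miRNA's mean over the 7 rats, for miR-383 and miR-488 (squares) and the 5 miRNAs with the nearest profiles to each (circles, shifted sideways within a rat). Both members lie above 0 in every older rat and below 0 in every younger rat, while miR-330*, miR-199a-5p and miR-214 lie nearer to 0 in some rats.

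Since the host gene of miR-488 is a neuronal gene and miR-124 is a neuronal miRNA, 14 miRNAs known from brain and neuroendocrine cells were set beside the members. Of these, 11 were tested, while miR-9, miR-9* and miR-138 were detected on 0 of 7 arrays. In the 11 tested, 5 differences were positive and 6 negative, with a median of -0.04 against 0.06 over all miRNAs tested. That median was not stable in sign: it was 0.24 after scaling to the 75th percentile of all rat miRNAs, where the median over all tested was 0.16, and 0.87 without normalisation, where that over all tested was 0.79. miR-124 was higher at 12 months (adjusted p = 0.00269, limma). The ages also did not overlap for miR-218a, whose difference was 0.82 (adjusted p = 0.0608, limma).

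miRNAs that mark other cell types of the pancreas were also set beside the members, and their part in the members' difference was not tested. Some members of a list come from the same hairpin, such as miR-142-3p and miR-142-5p, or miR-126 and miR-126*. Counts from these lists are therefore not counts of independent miRNAs. Over all miRNAs tested, 57.7% of the differences were positive. For 5 of 5 mesenchymal miRNAs the difference was positive, with a median of 1.16, and their summed signal before normalisation was 2629 to 3645 units at 12 months and 736 to 1711 units at 3 months. For 3 of 4 leukocyte miRNAs it was positive, with a median of 0.62, and the summed signal was 310 to 663 units against 142 to 222 units. For 3 of 3 acinar miRNAs it was negative, with a median of -2.11, and the summed signal was 149 to 1451 units against 887 to 1722 units. The summed signals of the mesenchymal and leukocyte lists before normalisation therefore did not overlap between the ages, whereas those of the acinar list did. Those of the endothelial list, 2173 to 2794 units at 12 months and 1017 to 1754 units at 3 months, did not overlap either. Such a separation was common before normalisation, where 131 of the 272 miRNAs tested were higher at 12 months with no overlap. After normalisation, 3 of 5 mesenchymal, 2 of 4 leukocyte and 1 of 2 endothelial miRNAs were, against 21 (7.72%) of all tested.

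The mesenchymal, leukocyte and acinar medians kept their sign under every scaling run. The remaining lists were short. Both endothelial miRNAs had positive differences, with a median of 0.32 and a summed signal of 2173 to 2794 units at 12 months and 1017 to 1754 units at 3 months. Both erythroid miRNAs had negative differences, with a median of -0.52 (0.16 without normalisation) and a summed signal of 144 to 289 units against 86.7 to 224 units. Both endocrine miRNAs had negative differences, with a median of -0.14, which was 0.09 after scaling to the 75th percentile of all rat miRNAs and 0.72 without normalisation. Of the 18 miRNAs tested in these cell type lists, 0 passed an adjusted p of 0.05 by limma or by the methods' t-test, and 10 had an unadjusted limma p under 0.05, of which 7 were higher and 3 lower at 12 months. Over all 272 tested, 59 (21.7%) had an unadjusted p under 0.05, of which 25 were higher and 34 lower.

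The arrays lay in 2 rows of the slide, the first with 2 older rats and 1 younger rat and the second with 2 of each age. Within the first row the log2 difference was 2.05 for miR-383 and 3.42 for miR-488, and within the second it was 2.68 and 3.32. With the row as a block in the fit, the differences were 2.43 and 3.36. The ages did not overlap for either member, so the direction within each row was fixed in advance and says nothing about the rows.

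The size of the difference depended on the processing, more for miR-488 than for miR-383. In the authors' normalised matrix miR-488 was 4.43, 4.35, 4.32 and 4.43 on the log2 scale at 12 months and 3.27, 3.34 and 3.31 at 3 months, a difference of 1.08. For miR-383 the same matrix gave 7.22, 6.93, 7.15 and 7.41 against 5.32, 5.18 and 4.84, a difference of 2.06. When the median over spots replaced the total gene signal, miR-488 differed by 1.51, and with normexp correction of the raw spot signals, with an offset of 16, in place of the software's background-subtracted total it differed by 0.26. Under every setting both differences were positive.

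**Figure D5:**
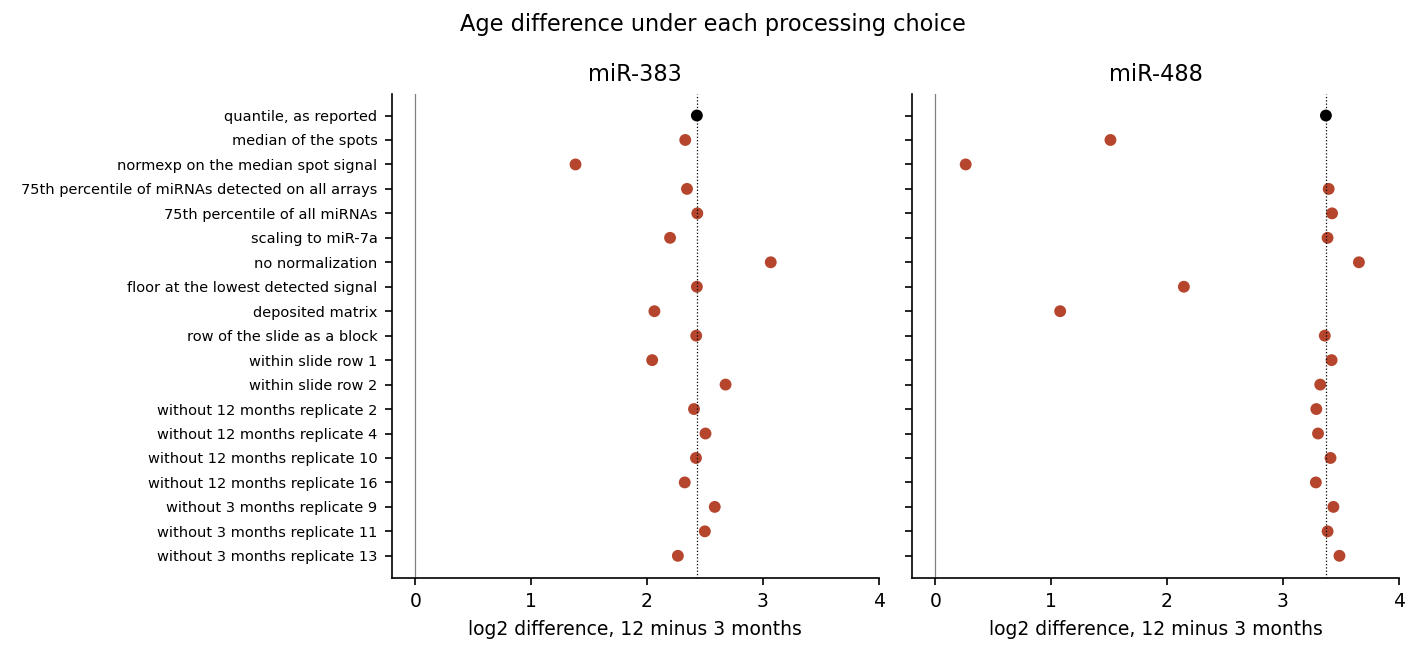
Log2 difference, 12 minus 3 months, of miR-383 and miR-488 under the main processing (black, dotted line) and under each alternative that was run on all miRNAs (red). All points lie above 0, from 1.38 to 3.07 for miR-383 and from 0.26 to 3.66 for miR-488.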

How the data were processed

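Islet RNA of 7 male Wistar rats was measured on 7 single-colour Agilent miRNA arrays, with groups taken from the labelled ages. The authors deposited the output of Agilent Feature Extraction (10.7.3.1 in the submitters' processing notes), which holds linear intensities after background subtraction, and a matrix of log2 values that were quantile normalised. Total gene signals were raised to a floor of 1 and log2 transformed. Quantile normalisation was run over the 677 rat miRNAs with limma (3.58.1) in R (4.3.3), leaving out control spots. The 272 miRNAs with a detection call in all rats of either age were fitted with lmFit and eBayes, with Benjamini-Hochberg adjustment and two-sided p-values. The limma p-values set each age difference against the spread between these rats, with variances moderated across miRNAs. For miR-124 all 3-month values were at the floor, so their spread was 0. The members and lists were chosen with earlier results of these data known. The named miRNAs were the members, their star forms, the 5 nearest profiles of each, the miRNAs detected at 12 months alone, and the fixed lists. The number of arrays limits the precision. Alternatives were signal summary, background correction, normalisation, floor, the deposited log2 matrix, slide row, single probes, detection filter, the t-test and leaving out each rat.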

Additional observations from a re-analysis of the deposited data

Results flagged for a closer look

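The total gene signal of miR-488 at 12 months had 1 rat apart from the others. Rat 10 read 9.38 units while the other 3 rats read between 13.7 and 14.1 units, and the gap to the nearest was 0.927 of the range of the group. Its bright probe A_26_P00001949 showed the same, with 7.16 units in rat 10 against 11.8 to 12.4 units, a gap of 0.899 of the range. Both exceed the critical value of Dixon's test for 4 samples. In all, 10 measures of the members were checked in this way, of which chance flags about 1 in 20. On the normalised log2 scale the gap for miR-488 was 0.644 of the range, under the critical value. The miR-488 signal in rat 10 was below that of the others and above every 3-month rat. Rat 10 also read lowest of the 12-month rats for miR-7a, 22838 units against 38605 to 46071 units. It read lowest for miR-375 too, 9959 units against 14260 to 16651 units, but highest for miR-124, 134 units against 14.7 to 59.7 units.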

How the results depend on the processing

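The main differences were 2.43 for miR-383 and 3.37 for miR-488. Against the lowest detected signals at 3 months, miR-488 was 4.78-fold under the main processing. This ratio is called the limit below, although it is not a strict bound. By limma, 4 miRNAs passed an adjusted p of 0.05, and 21 were higher at 12 months without overlap. Both differences stayed positive under every alternative run, and the causes of the changes were not tested. With the median over spots, miR-488 differed by 1.51, the limit was 2.85 and 2 miRNAs passed. With normexp on the raw spot signals (offset 16), which replaced the software's background subtraction and its total together, the differences were 1.38 and 0.26, the limit 1.19 and 2 passed. Scaling to the 75th percentile of the miRNAs detected on all arrays passed 20, and of all rat miRNAs 9. Scaling to miR-7a gave a limit of 4.12, 15 passed and 10 without overlap. With no normalisation, the differences were 3.07 and 3.66, the limit 7.53, 171 passed and 131 without overlap. This shifted the median of all tested miRNAs to 0.79, and miR-383 exceeded that median by 2.28. A floor at each array's lowest detected signal gave 2.15 for miR-488. The deposited matrix gave 2.06, 1.08, a limit of 1.71 and 8 passed. Probe A_26_P00001949 alone gave 3.102 and A_26_P00001948 alone 0.65, and A_26_P00001946 and A_26_P00001947 gave no value because they were at the floor on every array. Within the first row miR-383 differed by 2.05. Leaving out each rat gave 2.27 to 2.59 for miR-383, 3.28 to 3.49 for miR-488, 4.50 to 5.01 for the limit, 4 to 10 passed (10 without the 12-month rat 10) and 21 to 61 without overlap (61 without the 12-month rat 10, 42 without the 3-month rat 11). The methods' t-test passed 3. The distance between the members' profiles was 0.27 with the raised floor, 0.49 with no normalisation and 0.55 without the 12-month rat 10, where miR-488 was in place 2 from miR-383, settings chosen after seeing the data. Counts were not made within slide rows. No paired analysis was possible because the ages share no replicate numbers. The signal of miR-488 lies near background, so its size is given only against the lowest detected signals.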
